A study of Mus musculus with 3 samples.

Results

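Open chromatin was compared here at 707 autosomal regions that had an ATAC-seq peak in all 3 libraries of the series but a weaker one in the control than in both libraries lacking HNF4. They were chosen by the deposited peak scores. Each library was cut to its 16977 top-scoring peaks, the length of the control list, with ties taken in file order. Peaks of the 3 libraries that overlapped by 1 bp or more were merged into regions, and the highest score of a library in a region was turned into a percentile rank among that library's regions (0 weakest, 100 strongest). A region was kept when it lay on chromosomes 1 to 19, held a peak in every library, and ranked at least 25 points lower in the control than in each of the other libraries. Of 26766 merged regions in all, 26119 lay on the autosomes and 8978 of these were shared by all 3 libraries, so the 707 make up 7.87% of shared autosomal regions. Because the scores of all 3 libraries chose the regions, every rank gap below is a description and carries no test.

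The series holds 1 control library, of genotype Hnf4gCrispr/+, and 2 libraries of genotype Shh-Cre; Hnf4af/f; Hnf4gCrispr/Crispr, called double knockout (DKO) replicates 1 and 2. All came from epithelial cells of the mouse midgut at stage E16.5, enriched with beads against EpCAM, a surface protein of epithelial cells. The control thus carries 1 mutant copy of Hnf4g, and its label names neither a floxed Hnf4a allele nor the Cre driver. In the DKO the loss of Hnf4a depends on Cre expressed from Shh, a gene active in gut endoderm. Whether a library came from 1 embryo or several is not stated in the sources used here. With 1 control library against 2 DKO libraries, the smallest p-value that an exact permutation of the labels allows is 0.333. The difference between the DKO replicates is therefore the only measure of replicate error.

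HNF4A and HNF4G are paired nuclear receptors that bind overlapping sites in enhancers and promoters of gut epithelium, where they are known for maintaining the absorptive enterocyte programme. In ATAC-seq a transposase inserts adapters into accessible DNA, and clusters of insertions are called as peaks. A region that scores higher without a factor is often described as gained accessibility, but a rank gap between peak lists measures only the relative standing of a peak within its own library. Coordinates are on mm9, the build named in the submitters' processing notes. Genes and sequences of that build were not used here, so the regions are named by position, and neither their nearest genes nor the state of Hnf4a and Hnf4g could be described. Markers of other cell types that an EpCAM selection could carry were not tested for the same reason.

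The deposited lists held 16977 control peaks and 18268 and 26648 peaks of DKO replicates 1 and 2, each a window of 601 bp with a whole-number score. The lowest scores kept at equal list length were 10, 14 and 18 in that order, so a weak control peak can carry a lower score than any peak kept in the DKO lists. Sequencing depth is unknown from the files, and the scale of the score is not stated.

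Beside the other shared regions, the members were ordinary peaks in the DKO libraries and weak peaks in the control, where the rule asks for a lower rank. Their control scores ran from 10 to 26 with a median of 16, against a median of 25 over all shared autosomal regions. In DKO replicate 1 they ran from 20 to 82 with a median of 34, against 33 over all shared regions. In DKO replicate 2 they ran from 23 to 87 with a median of 37, against 34. The members' median score therefore lay near that of the shared regions in both DKO libraries and 9 units under it in the control. Shared regions are themselves stronger than most peaks. The complete deposited lists had median scores of 21 in the control and 24 and 22 in DKO replicates 1 and 2, so the median member lay above both DKO list medians.

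On the rank scale the median member stood at 22.8 among control regions and at 71.9 and 72.1 in DKO replicates 1 and 2. The medians over all shared regions were 65.7, 70.0 and 66.2. The control rank was at most 25 in 370 members, between 25 and 50 in 234, and between 50 and 75 in 103. Of the members, 129 (18.2%, Wilson 95% interval 15.6 to 21.3%) had a control rank of at most 10, where 257 of all shared regions (2.86%) lay. The rule itself favours regions of low control rank, so this larger share follows from the choice of regions.

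**Figure D1:**
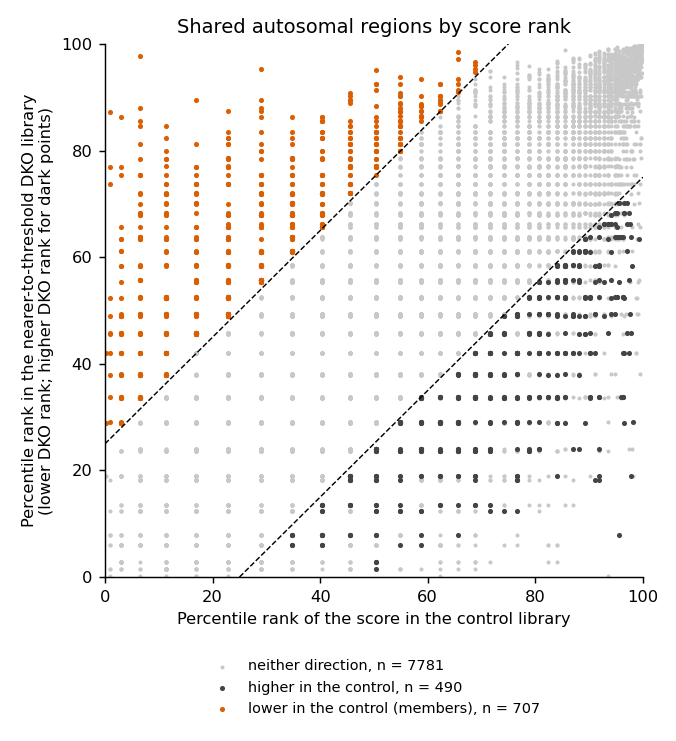
Each point is 1 of the 8978 shared autosomal regions, placed by its percentile rank in the control (x axis) and in 1 DKO library (y axis: the lower DKO rank, or the higher one for the 490 regions of the opposite direction); dashed lines mark a gap of 25 points. The 707 members (orange) spread over control ranks from 0.138 to 68.8; columns of points are tied scores.

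Few members were among the strongest DKO peaks. In both DKO libraries 224 members (31.7%) ranked above 75, a share close to the 30.9% of all shared regions, and 30 (4.24%) ranked above 90, against 12.2% of all shared regions. Members were most frequent at intermediate DKO strength, with 172 of 1247 shared regions (13.8%) at a mean DKO rank between 60 and 70. Between 90 and 100 they were 61 of 1367 (4.46%). Members at low DKO ranks are barred by the rule itself, which needs 25 points of room below. Ranks above 75 in both DKO libraries together with a control rank of at most 25 were found at 41 members.

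The DKO replicates stood close together at most members. Their ranks differed by a median of 9.13 points (quartiles 3.91 and 15.5), against a median of 11.0 points (quartiles 4.25 and 22.3) over all shared regions. In 59 members (8.35%) the replicates were more than 25 points apart, against 1876 of the shared regions (20.9%). DKO replicate 2 was the higher of the pair in 378 members (53.5%) and in 44.4% of all shared regions, so the higher replicate was not always the same one. The rule favours regions where the replicates are alike, since both had to clear the control by the same margin.

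The smaller of a member's gaps to the 2 DKO libraries had a median of 34.4 points (quartiles 29.0 and 43.7) and reached 91.3. It was under 35 points in 355 members and 50 points or more in 114. The members just inside the threshold included chr10:62254838-62255477, with a control score of 21, DKO scores of 63 and 39 and a smaller gap of 25.03 points. Another, chr8:96737971-96738763, scored 22, 39 and 47 with a gap of 25.1 points. The 5 regions just outside all had a gap of 24.99 points, a control score of 15 and a DKO replicate 2 score of 26. They are ties, listed by position. One of them, chr13:46822435-46823643, scored 25 and 26 in the DKO libraries. Because scores are whole numbers with many ties, regions on either side of the threshold differ little in their gap. The listed ones differed in strength. The control rank was 50.4 at chr10:62254838-62255477 and 17.0 at chr13:46822435-46823643, and the DKO replicate 2 ranks were 75.4 and 42.0.

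The region with the largest gap was chr8:31697750-31698506. Its control score was 13 (rank 6.47), and its scores in DKO replicates 1 and 2 were 73 (rank 97.7) and 87 (rank 99.0). It was the only one of the 20 leading members above rank 97 in both DKO libraries. A peak called in the control alone lay 17612 bp away between centres. A region called in both DKO libraries but not in the control lay 21242 bp away. Calls of opposite kinds, judged at equal list length, thus lay near it.

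The second member, chr7:95202456-95203116, had a control score of 11 and DKO scores of 46 and 62, with ranks of 0.937, 87.2 and 94.6. Its nearest shared region, 217478 bp away, stood the other way, with the mean DKO rank 25.9 points under the control rank. The third, chr7:124234236-124235003, scored 12, 45 and 52 in the same order, with ranks of 2.96, 86.4 and 89.6. The nearest region of any library at equal list length lay 194972 bp away, so this member stood isolated among the peaks kept.

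The fourth, chr15:3983477-3984100, scored 13, 47 and 68. A shared region 7197 bp away scored 29, 51 and 60, with ranks of 76.6, 90.9 and 93.8, so the same order of libraries was present there with a smaller gap. The fifth, chr5:14198411-14199193, scored 13, 44 and 62. The sixth, chr12:118783504-118784358, scored 13, 43 and 71. In both, DKO replicate 2 had the higher rank of the DKO pair, and the control peak sat 154 and 235 bp from the mean DKO centre.

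Members 7 and 10 in the order of gap were each other's nearest shared region, 231969 bp apart on chromosome 12. The first, chr12:15559344-15560208, had a control score of 11 and DKO scores of 37 and 52. The second, chr12:15327444-15328170, scored 14, 43 and 47. No region kept at equal list length lay between them. They were the one pair of leading members that stood next to each other.

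Across the 20 leading members, control scores lay between 11 and 15, DKO replicate 1 scores between 36 and 73, and DKO replicate 2 scores between 38 and 87. The control scores of these 20 did not overlap their DKO scores, which describes regions picked for large rank gaps. A score above the control in both DKO libraries was common, at 6389 of all 8978 shared regions (71.2%), and the scores have no stated common scale. DKO replicate 2 had the lower rank in 3 of them, among which chr2:77887251-77888112 had a control score of 11 and DKO scores of 43 and 38. The nearest shared region ranked higher in the DKO mean at 11 of the 20, with a median difference of 1.37 points. The large gaps were thus mostly not repeated at the next shared region.

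**Figure D2:**
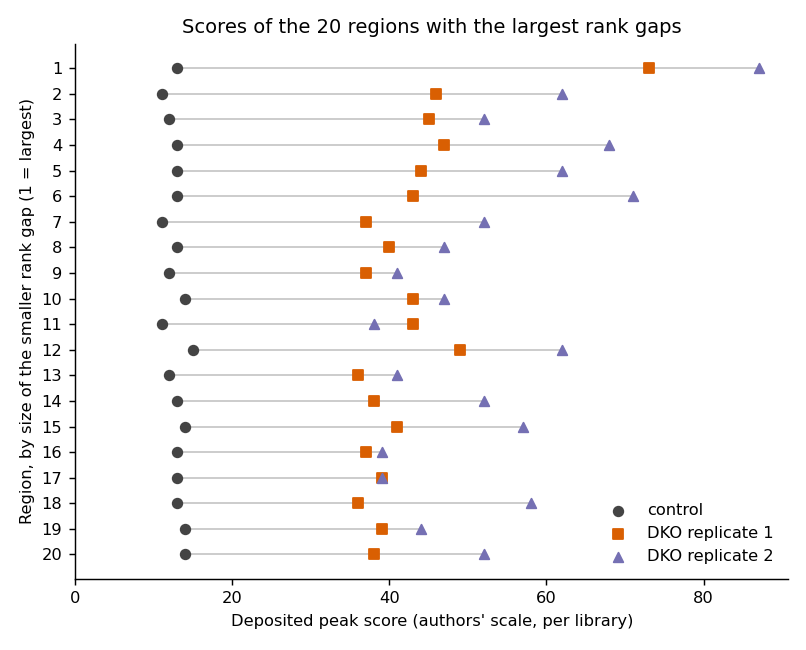
Deposited scores (x axis, the authors' scale in each library) of the 20 members with the largest rank gaps (y axis, 1 = largest), with the control as circles, DKO replicate 1 as squares and DKO replicate 2 as triangles. Control scores lie between 11 and 15, and the DKO scores of every region lie above them, up to 87 in region 1; the libraries may differ in score scale, and 71.2% of all shared regions score higher in both DKO libraries.

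The same rule was applied with each library in the place of the control, to show how often 1 library stands apart from the other 2. The control ranked lower at 707 of 8978 shared regions (7.87%, Wilson 95% interval 7.34 to 8.45%) and higher at 490 (5.46%, 5.01 to 5.95%). DKO replicate 1 ranked lower than the other 2 libraries at 357 (3.98%, 3.59 to 4.40%) and higher at 404 (4.5%, 4.09 to 4.95%). DKO replicate 2 ranked lower at 494 (5.5%, 5.05 to 5.99%) and higher at 250 (2.78%, 2.46 to 3.15%). The intervals cover counting error over regions and not variation between embryos. The control's downward count was the highest of the 6, but 494 regions set DKO replicate 2 below both its own replicate and the control.

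**Figure D3:**
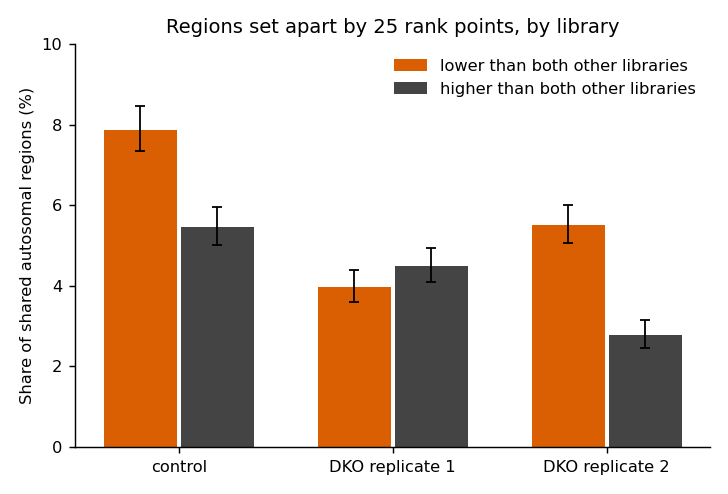
Share of the 8978 shared autosomal regions (y axis, percent) at which a library (x axis) ranked at least 25 points lower (orange) or higher (dark) than both others; error bars are Wilson 95% intervals for counting error. The control's downward share, 7.87%, is the tallest bar, and the other 5 lie between 2.78% and 5.5%.

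The balance of directions depended on how ranks were formed. With ranks among all regions of a library, 59.1% of the control's set-apart regions were lower and the rest higher. With ranks among the shared regions only, 620 were lower and 658 higher, so the lower ones made up 48.5% and the order reversed. Of the 707 members, 498 (70.4%) were kept under that ranking, and these were 80.3% of the 620. With the complete deposited lists, 1237 of 10120 shared regions (12.2%) were lower in the control and 269 (2.66%) were higher. All 707 members met the rule there too, with a median gap of 42.8 points. This was fixed in advance, because the control list is the same and the DKO lists only gain weaker peaks, which raises the ranks of those already kept. Set against DKO replicate 2 alone, without DKO replicate 1, the control was lower at 1208 regions and higher at 1487, while against DKO replicate 1 alone it was lower at 1513 and higher at 1343.

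The position of the members was not used by the rule beyond the overlap of peaks. They were scattered over the genome. Between 18 and 58 lay on each of the 19 autosomes, and they made up from 5.16% of the shared regions of chromosome 14 to 10.6% on chromosome 17. The interval included the overall 7.87% on 16 chromosomes. Chromosome 6 (53 of 517, 10.3%) and chromosome 17 (43 of 406, 10.6%) lay above it, and chromosome 11 (34 of 598, 5.69%) lay below. Members outnumbered the regions of the opposite direction on 15 chromosomes, and on chromosome 17 there were 43 against 12.

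**Figure D4:**
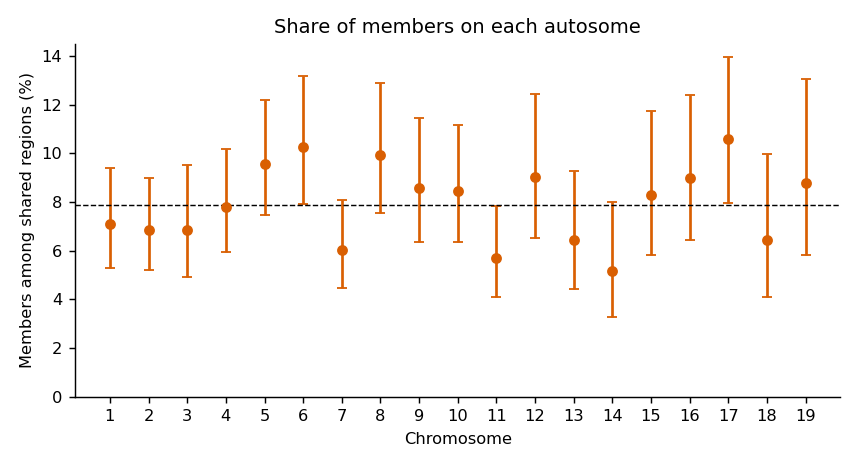
Members as a share of the shared regions of each autosome (y axis, percent; x axis, chromosome), with Wilson 95% intervals for counting error; the dashed line is the share over all autosomes, 7.87%. Intervals on chromosomes 6, 11 and 17 miss the line, and the other 16 include it.

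Members seldom lay close to one another. Distances and spans between regions are given from centre to centre. Another member was within 100 kb of 76 (10.7%, Wilson 95% interval 8.67 to 13.2%). A member was within the same distance of 9.95% (9.30 to 10.6%) of the shared regions that met the rule in neither direction. The median distance to the nearest member was 748886 bp from a member and 903990 bp from those other shared regions, so members were somewhat nearer to each other at that scale. Chained at steps of up to 100 kb, 631 members stood alone, 70 formed 35 pairs and 6 formed 2 groups of 3.

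The tighter group of 3 spanned 46010 bp on chromosome 17, and no other region kept at equal list length lay between its members. Its first member, chr17:35225993-35226686, had a control score of 16 and DKO scores of 30 and 34. The second, chr17:35258114-35258758, scored 18, 42 and 39. The third, chr17:35271922-35272778, scored 18, 34 and 36. All 3 had control ranks between 22.8 and 34.8 and DKO ranks between 63.4 and 83.5. The stretch thus held consecutive peaks of moderate DKO strength, and the lower control ranks are required by the rule.

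The other group of 3 spanned 105677 bp on chromosome 1 and held 5 further regions between its members. Its members were chr1:172974588-172975355 with scores of 14, 29 and 27, chr1:173032698-173033506 with 19, 34 and 40, and chr1:173080271-173081027 with 17, 27 and 31. Of the regions between them, 3 were called in DKO replicate 2 alone, 1 in both DKO libraries and not in the control, and 1 was shared. The shared one, chr1:172993995-172995110, scored 25, 32 and 37 and had a smaller gap of 2.25 points. None of these regions was called in the control alone.

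The closest pair of members, picked after its values were seen because all pairs tie in size, lay 6273 bp apart on chromosome 5. The first, chr5:31350437-31351388, had a control score of 23 and DKO scores of 48 and 61. The second, chr5:31356795-31357577, scored 14, 31 and 25. The members of the pair differed in strength, while their order of control and DKO was fixed by the rule.

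Neighbouring regions were then described, since their scores played no part in choosing a member. Only neighbours that met the rule in neither direction were counted, so the rule did limit which neighbours enter. Among 298 members with a shared region of neither direction within 50 kb, the mean DKO rank of that region exceeded its control rank by a median of 2.4 points (95% interval of the median over regions 0.0822 to 3.93). The neighbour was higher in the DKO mean at 170 of the 298 (57.0%, 51.4 to 62.5%). Beside the 3608 other shared regions with such a neighbour the median was 0.0543 points (-0.344 to 0.393), and 50.2% were higher. Beside regions of the opposite direction it was -2.33 points (-5.68 to -0.442), with 40.4% higher. The neighbours thus leaned slightly in the direction of the region they flanked, by far less than the members' own median gap of 34.4 points.

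This lean was small against other differences in the data and moved with the settings. The median was 0.307 points with 10000 peaks per list, 0.242 points without DKO replicate 1 and 0.67 points for neighbours within 20 kb. It was 2.97 points with windows of 200 bp, 3.36 points without DKO replicate 2 and 6.47 points with the complete lists, where other shared regions also had a neighbour median of 2.94 points. Neighbouring regions share the same 3 libraries and are not replicates, so no p-value is attached.

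Regions called in fewer libraries showed no gathering of DKO-specific calls around the members. A region called in both DKO libraries but not in the control lay within 50 kb of 148 members (20.9%, 18.1 to 24.1%), against 22.0% (21.1 to 22.9%) of other shared regions. A region called in the control alone lay within 50 kb of 191 members (27.0%, 23.9 to 30.4%), against 29.6% (28.6 to 30.6%) of other shared regions and 37.6% (33.4 to 41.9%) of regions of the opposite direction. Both kinds were judged at equal list length, where weaker DKO peaks are left out. With the complete lists, a region called in the control alone lay near 21.3% (19.1 to 23.7%) of members. The share was 25.1% (24.2 to 26.0%) for other shared regions. For regions called in both DKO libraries alone the shares were 29.5% and 30.1%. The nearest region of any kind was a median of 21790 bp from a member and 20891 bp from other shared regions. The surroundings of the members were therefore about as dense in called regions as those of other shared regions.

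The members were slightly wider than other shared regions, and their control peaks sat farther from the DKO centres. Their median width after merging was 730 bp, against 711 bp over all shared regions, and each held 1 peak from each library. The control peak centre lay a median of 83 bp from the mean DKO centre, against 62.5 bp over all shared regions, while the DKO centres lay 57 bp apart in both sets. The offset was larger where the control peak was weak. Among shared regions of the lowest control ranks, up to 10, the median offset was 104.5 bp over all of them and 90 bp in the members. Members are 129 of the 257 regions of that band, so the sets overlap and their contrast is muted. Between control ranks of 20 and 30 it was 86.5 and 84.5 bp. Over the 7 bands of control rank that hold members, the members had the larger median offset in 3 and the smaller in 4. Over the 7 bands of mean DKO rank that hold members, they had the larger offset in 6, for example 92.5 against 64.5 bp between ranks of 60 and 70. The larger offset of the members was thus seen at like DKO rank and not steadily at like control rank.

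**Figure D5:**
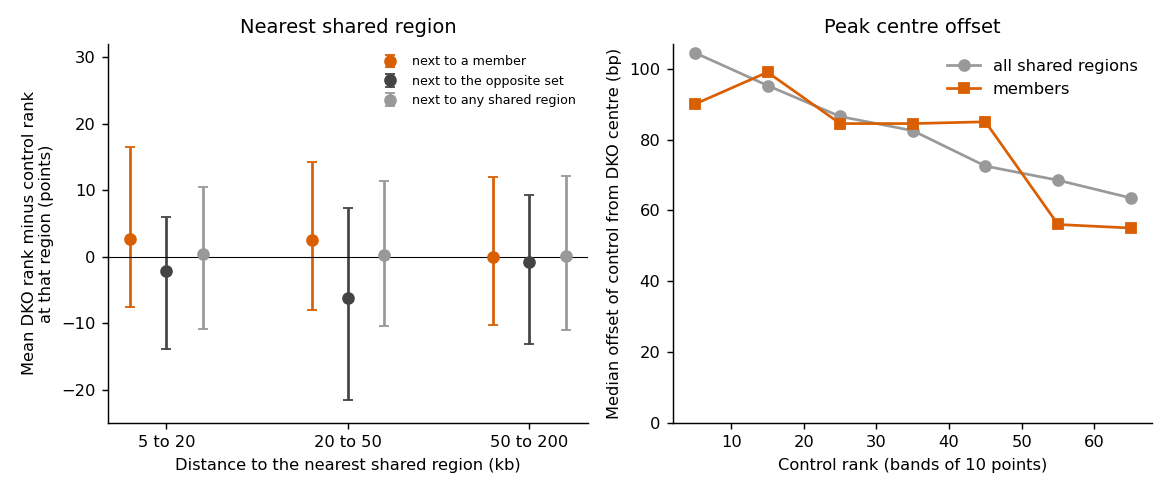
Left: mean DKO rank minus control rank (y axis, points; median with quartiles) at the shared region nearest to a member, to a region of the opposite direction or to any shared region, by distance in kb (x axis). Unlike in the text, this nearest shared region may itself be a member or of the opposite direction. At 5 to 20 kb from a member, 18 and 7 of 137 were. Right: median distance in bp between the control peak centre and the mean DKO centre by control rank in bands of 10 points. Beside members the median is 2.66 points at 5 to 20 kb and -0.0792 points at 50 to 200 kb with wide quartiles; the offset is 104.5 bp over all shared regions at the lowest control ranks, and in the members it lies between 84.5 and 99 bp up to a control rank of 50 and at 56 and 55 bp above it.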

How the data were processed

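ATAC-seq libraries were made from 20000 cells each and sequenced as single-end reads of 75 bp, per the labels' protocols. The submitters' processing notes name FastQC 0.11.3, Bowtie2 2.2.6, deepTools 2.4.2, MACS 1.4.1 and mm9, without roles; thresholds, duplicate removal and read shifting are not given in the sources used here. For each library the authors deposited a peak list giving a whole-number score per window whose scale is not stated, so regions were chosen and compared by rank within a library; scores are printed beside the ranks as deposited values. A taller score may follow from deeper sequencing, and depth is unknown.

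Peaks were reduced to equal list length, merged and ranked in Python 3.11.15 with pandas 2.3.3 and scipy 1.17.1, with average ranks for ties. The code of the rule was checked on copies of the control list with planted regions, which gives no error rate for these data. Shares carry Wilson intervals and medians of neighbours order-statistic intervals, both at 95%. No test of genotype was made. Starts are printed 1-based.

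Described individually were the 20 members with the largest smaller gap (those that add something are named), regions beside the threshold, and the groups with the most members within 100 kb. Members, lists and rules were chosen with earlier results of these data known. Alternatives were list length, rank gap, window width, score summary, tie order, rank base and leaving out each DKO library. Start-site distance, base composition, motifs, gene lists and cell type markers were left out, because the gene table at hand is on GRCm38 and the peaks on mm9.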

Additional observations from a re-analysis of the deposited data

How the results depend on the processing

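The members numbered 1237 with all deposited peaks, 1294 and 352 at rank gaps of 15 and 35 points, and 357 with DKO replicate 1 in the place of the control. Regions of the opposite direction numbered 269 with all deposited peaks, 302 with 10000 peaks per list, 992 and 232 at gaps of 15 and 35 points, and 250 with DKO replicate 2 in the place of the control. Leaving out a DKO library gave 1208 to 1513 members and 1343 to 1487 of the opposite direction; the shared set was then larger (9862 and 10244 regions), since a peak in 1 DKO library was enough, and 1 gap had to be met instead of 2. Without DKO replicate 1 the opposite direction was the larger. With 10000 peaks per list 489 members were found, of which 164 were members at full length, and the control peak of 543 of the 707 is not on that shorter list. Windows of 200 bp (608) and reversed ties (707) left the count within 1.5 times. The mean score in place of the highest could change nothing at regions with 1 peak per library.

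Another member lay within 100 kb of 18.5% with all deposited peaks, 5.73% with 10000 peaks, 8.55% with 200 bp windows and 15.1 to 24.4% without a DKO library, and 2.55% within 20 kb. At 100 kb the share rose with the number of members in a setting. With all deposited peaks, 17.7% of other shared regions also had a member within that distance, close to the 18.5% of members. The neighbour median was 6.47 points with all deposited peaks. The median centre offset was 73.5 bp with 10000 peaks. The alternatives on the neighbour median and the centre offset were chosen after seeing the data. No paired analysis was possible because 1 control library without a number has no partner to pair with. Other distances and windows for start sites, base composition and motifs were not run, since no genes or sequence of mm9 were used.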

Other observations

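Outside the autosomes, 22 of 182 shared regions on chromosomes X and Y (12.1%) had a control rank at least 25 points under both DKO ranks. The autosomal share was 7.87%. A control rank as far above both DKO ranks was found at 9. The sex of the embryos was not examined. All 22 lay on chromosome X.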
